A study of Mus musculus with 9 samples.

Results

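Fatty acids are built in the cytosol from acetyl-CoA. Acetyl-CoA carboxylase makes malonyl-CoA, fatty acid synthase joins the carbons into palmitate, desaturases then add double bonds, and elongases add further carbons. In the retina the same elongation and desaturation steps serve the polyunsaturated chains of photoreceptor membranes, which are rich in docosahexaenoic acid, and ELOVL4 makes the very long chains that photoreceptors hold. The transcription factor SREBP-1, encoded by Srebf1, is known for turning on many of these genes, and the sterol sensor INSIG1 holds SREBP precursors in the endoplasmic reticulum.

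The expression of 10 genes of this route was described: Srebf1, Acaca, Fasn, Scd1, Scd2, Fads1, Fads2, Elovl2, Elovl4 and Elovl5. They were chosen by symbol and not by a measured value, though with earlier results of these data known. Each symbol matched 1 of the 35397 genes of the table. All 10 had a mean of at least 1 FPKM (fragments scaled to transcript length and to the library total, a level per length) over the 9 libraries, and so were among the 14588 genes tested. The libraries were made from total RNA of mouse retina, 5 from wild-type mice and 4 from db/db mice, which carry a defect of the leptin receptor and become obese and diabetic. The db/db libraries carry the numbers 1, 3, 4 and 5. The labels give no age, sex, strain background or batch, and nothing in them says that the libraries stem from separate animals. The p-values therefore describe the spread between libraries, which may be technical.

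The depth recovered from the FPKM steps was 36.6 to 47.9 M reads per library, and the 10 genes held between 493 (Scd1) and 20966 (Scd2) reads in a library. Lepr, the leptin receptor gene, was near its detection limit at 0.0264 to 0.0467 FPKM in wild type and 0.0308 to 0.0689 FPKM in db/db, and a gene total does not show the db allele, so it checks no label. The library db/db 1 stood apart by transcript length. Relative to the wild-type mean its median log2 level was 0.456 in the 2108 tested genes with a longest transcript of up to 1000 bases and -0.489 in the 761 genes over 8000 bases, while the other 8 libraries lay between -0.116 and 0.0432 in every length class. Level relative to the wild-type mean also ran with GC content in the db/db libraries, with correlations across genes of 0.184 to 0.498. The correlations were -0.121 to 0.128 in the wild-type libraries, which lie around 0 by construction because their own mean is the reference. All db/db libraries share that reference, and with it any GC trend it holds. Rod markers summed to between 10800 and 12800 FPKM and Muller glia markers to between 1400 and 1780 FPKM in all 9 libraries, so the labelled tissue was present throughout. Traces of neighbouring tissue varied between libraries, among them skeletal muscle markers at 181 FPKM in db/db 1 against 4.22 to 20.7 FPKM elsewhere and cornea and epidermis markers at 287 FPKM in db/db 4 against 1.57 to 25.7 FPKM elsewhere, and their part in the values below was not tested. In bulk retina fewer cells of a type and less RNA per cell cannot be told apart.

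In wild-type retina the most abundant of the 10 transcripts per length was Elovl4, at 130 ± 5.28 FPKM over 5 libraries (SD), followed by Scd2 at 73.7 ± 3.82 FPKM. Fads2, Fasn, Srebf1, Elovl2 and Fads1 lay between 17.9 and 26.6 FPKM, and neighbours in that order overlapped over the 9 libraries. Elovl5 stood at 9.59 FPKM, Acaca at 5.64 FPKM and Scd1 lowest at 3.94 FPKM. Elovl4, Scd2, Fads1 and Elovl5 were each set apart from the next gene down, with no overlap of their ranges over the 9 libraries. Elovl4 thus lay above 98.7% of tested genes by level and Scd1 above 29.1%. These levels are per base of joined exons, which for some genes far exceed the longest transcript (17074 against 9513 bases for Acaca). The order therefore depends on the length used.

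Between db/db and wild type none of the 10 genes passed an adjusted p of 0.05 (limma over all tested genes, Benjamini-Hochberg), where 0.5% of all tested genes did (0.233% higher and 0.267% lower in db/db). On reads recovered from the FPKM steps limma-voom also called 0 of 10, against 0.759% of genes. Scd1 was just above the threshold there, with a log2 change of -0.66 (limma-voom adjusted p = 0.0509). At an unadjusted p under 0.05 stood 4 of the 10 (Scd1, Srebf1, Scd2 and Fads1), against 19.3% of all tested genes. The groups did not overlap in 2 genes, Scd1 and Scd2, both lower in db/db, against 6.38% of tested genes in that direction. The median log2 change of the 10 was -0.0306, beside 0.00345 over all tested genes, with 4 positive and 6 negative. Without db/db 1, 10.6% of tested genes passed and 2 of the 10 did, Fasn upward and Scd1 downward.

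**Figure D1:**
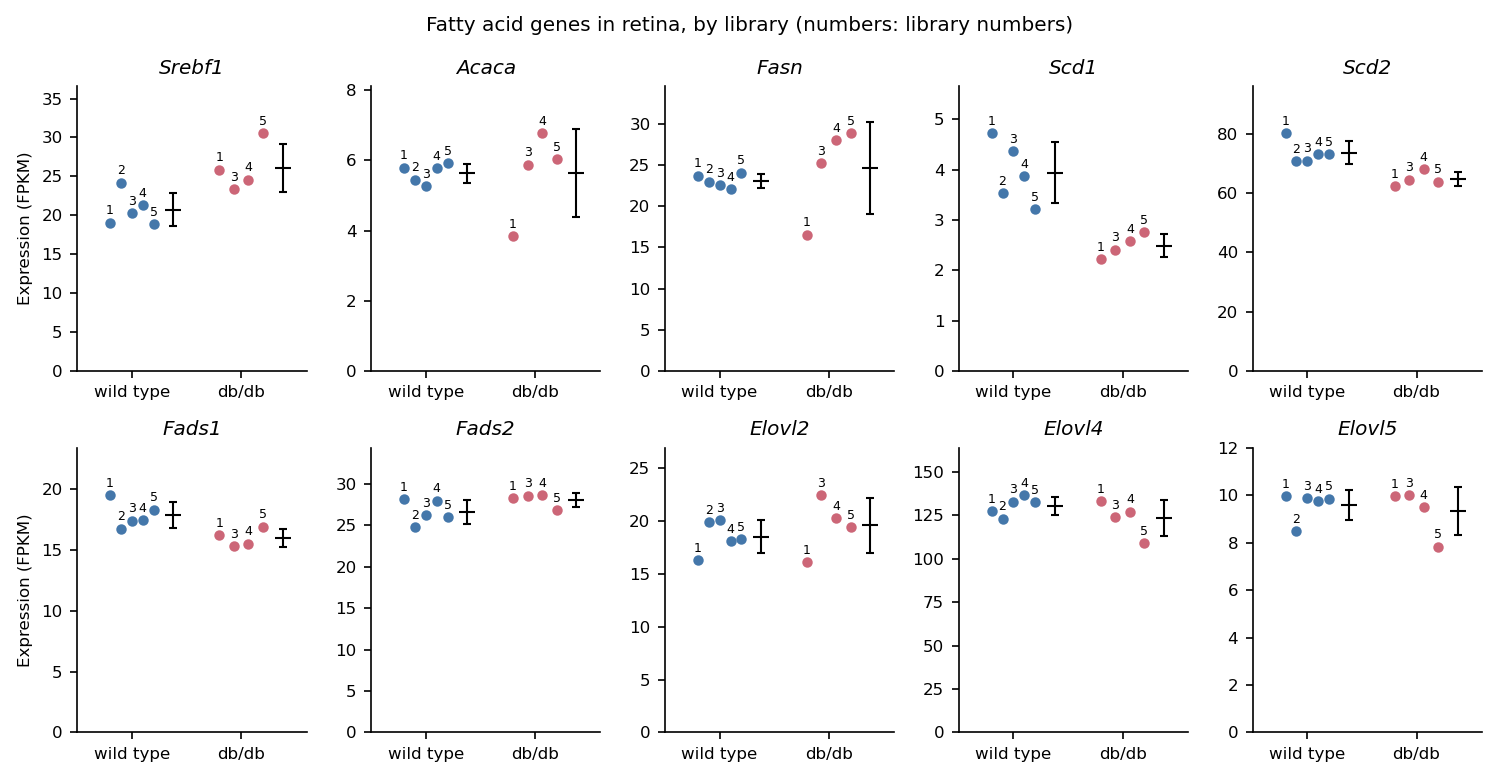
Expression of the 10 genes in FPKM (vertical axes, each from 0) in the 5 wild-type and 4 db/db libraries, with a point per library marked by its number and a bar for the mean and SD of each group. Scd1 and Scd2 have no db/db value within the wild-type range, and db/db 1 is the lowest library for Fasn (16.5 FPKM) and Acaca (3.85 FPKM).

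Srebf1 encodes the precursor of SREBP-1 (ENSMUSG00000020538, chromosome 11, 60199089 to 60222581, minus strand, mm10). Its wild-type libraries 1 to 5 held 19.1, 24.2, 20.3, 21.3 and 18.9 FPKM. The db/db libraries 1, 3, 4 and 5 held 25.8, 23.3, 24.6 and 30.5 FPKM. Thus 3 db/db values lay above every wild-type value, and db/db 3 lay below wild type 2. Wild type averaged 20.7 ± 2.16 FPKM (SD, n = 5) and db/db 26.1 ± 3.14 FPKM (SD, n = 4). The log2 change came to 0.32 (SE 0.10), with a limma adjusted p of 0.128. Srebf1 transcripts are rich in GC (58.4%), and after a correction for GC content the log2 change was 0.17 (adjusted p = 0.439). Over the 22 alternatives its adjusted p ran from 0.0715 to 0.439, and its change stayed positive. The gene total joins transcripts from several starts, so it does not separate the forms SREBP-1a and SREBP-1c. Rai1, at a mean of 10.4 FPKM, overlaps Srebf1 on the opposite strand, and as the strand of counting is not given in the sources used here, their reads may not be fully separate.

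Insig1 encodes the sensor that retains SREBP precursors when sterols are plentiful (ENSMUSG00000045294, chromosome 5, 28071363 to 28078662, plus strand), and it was the only gene of the lipid groups described further on that passed with all 9 libraries. It fell to 17.8 ± 2.23 FPKM in db/db (SD, n = 4) against 24.8 ± 0.549 FPKM in wild type (SD, n = 5), with 24.1 to 25.7 FPKM in wild type and 17.0, 15.6, 17.6 and 20.9 FPKM in db/db 1, 3, 4 and 5. The groups did not overlap, and the log2 change was -0.47 (SE 0.08, limma adjusted p = 0.0420). The call was kept in 9 of 22 alternatives and was lost without any one of wild type 1 to 5, db/db 3 or db/db 4 (adjusted p between 0.0735 and 0.152), as it was with GC correction (0.108), while the log2 change ran from -0.54 to -0.41.

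Acaca encodes acetyl-CoA carboxylase 1, which makes malonyl-CoA (ENSMUSG00000020532, chromosome 11, 84129672 to 84401651, plus strand), and Fasn encodes fatty acid synthase (ENSMUSG00000025153, chromosome 11, 120805846 to 120824547, minus strand). Fasn held 23.7, 23.0, 22.5, 22.0 and 24.1 FPKM in wild type 1 to 5, a narrow range with an SD of 3.64% of the mean. In db/db 1, 3, 4 and 5 it held 16.5, 25.2, 28.0 and 28.8 FPKM. Of the db/db libraries 3 were above and db/db 1 was below every wild-type library. With all 9 the log2 change was 0.06 (SE 0.14, adjusted p = 0.827, 95% interval of the fold 0.838 to 1.30). Without db/db 1 Fasn rose, from a mean of 23.1 ± 0.840 FPKM in wild type (SD, n = 5) to one of 27.3 ± 1.88 FPKM in the 3 remaining db/db libraries (SD). Its log2 change was then 0.24 (SE 0.05, adjusted p = 0.0282). That call was made in 1 of 22 alternatives. With db/db 1 and db/db 4 both left out the adjusted p was 0.0783, and with db/db 1 left out and GC content corrected it was 0.115.

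Acaca stood at a lower level, and db/db 1 was again its lowest library. It held 5.80, 5.46, 5.26, 5.78 and 5.92 FPKM in wild type 1 to 5 and 3.85, 5.88, 6.77 and 6.04 FPKM in db/db 1, 3, 4 and 5, so db/db 4 and 5 were above and db/db 1 was below every wild-type value. Its log2 change was -0.02 (SE 0.12, adjusted p = 0.931), and 0.12 without db/db 1 (adjusted p = 0.191), so that the sign rested on that library. The ratio of Fasn to Acaca within a library, which does not depend on library scale, was 4.09 ± 0.178 (SD, n = 5) in wild type and 4.37 ± 0.275 (SD, n = 4) in db/db, with overlapping groups. Its size depends on the length used for scaling. The joined exons span 10947 bases in Fasn and 17074 in Acaca, against longest transcripts of 10050 and 9513 bases.

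Fasn and Acaca are the longest transcripts of the 10, at 10050 and 9513 bases. In db/db 1 they stood at -0.454 and -0.452 relative to the wild-type mean (log2), beside a median of -0.489 for all 761 tested genes over 8000 bases. They lay at percentiles 53.4 and 53.6 of that length class in db/db 1. In db/db 4 they were at 0.270 and 0.227, beside a class median of 0.0094. After a correction for transcript length with all 9 libraries the log2 change of Fasn was 0.22 (adjusted p = 0.101) and that of Acaca 0.13 (adjusted p = 0.191). The 2 genes were thus low in db/db 1 by as much as other long transcripts.

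**Figure D2:**
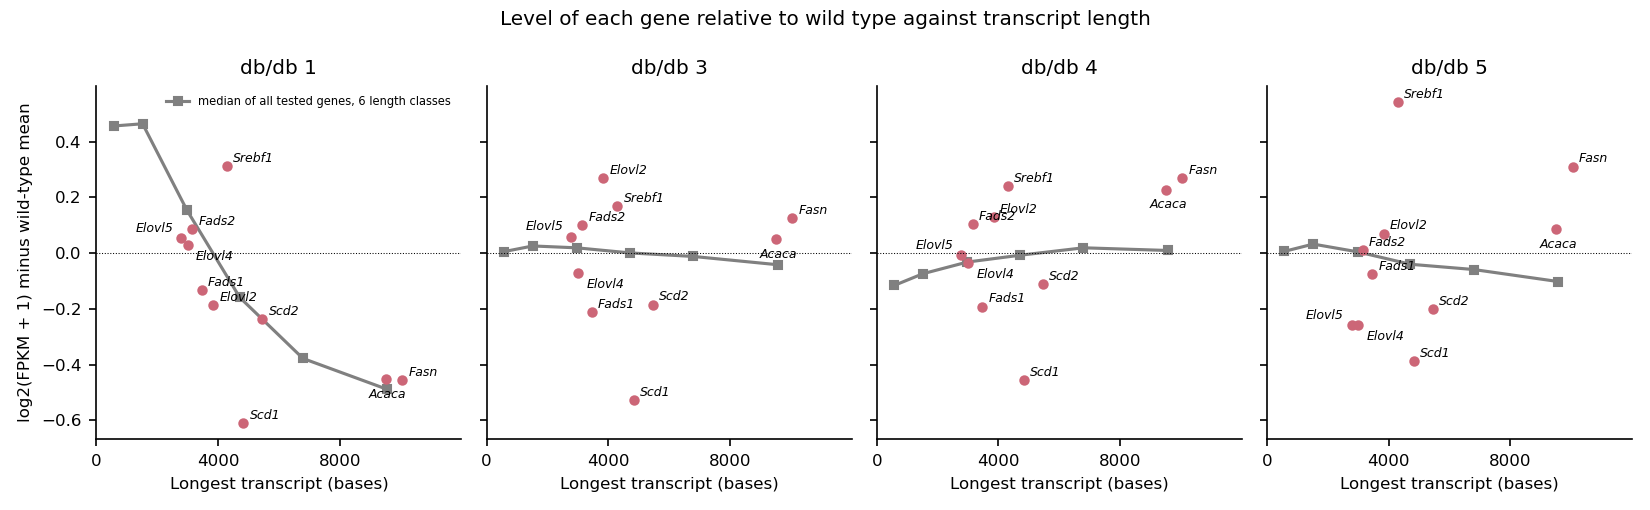
Level of each of the 10 genes relative to the wild-type mean (vertical axis, log2(FPKM + 1)) against the length of its longest transcript (horizontal axis, bases), in a panel for each db/db library, with grey squares for the median of all tested genes in 6 length classes. The grey line goes from 0.456 in the shortest class to -0.489 in the longest in db/db 1 and stays between -0.116 and 0.0323 in the other 3 panels. In db/db 1 Fasn, Acaca and Scd2 lie close to it, while Scd1, Fads1 and Elovl4 lie below the line in all 4 panels.

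Acaca also has a near copy. Of the 50-base windows of its longest transcript 52.6% occur in Gm5182, a processed pseudogene on chromosome 12 (10152142 to 10158233, plus strand), named after this was seen. Gm5182 was listed at 4.79 to 5.38 FPKM in wild type, 5.13 to 5.55 FPKM in db/db 3, 4 and 5, and 1.89 FPKM in db/db 1. How the authors counted reads that fit both places is not given in the sources used here, so the level of Acaca is uncertain. No window of Fasn, Srebf1, Fads1 or any of the 3 elongase genes occurred in another gene, and 0.161% of those of Fads2 occurred in Fads3.

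The promoter of Fasn is shown because it carries the CCAAT pairs that SREBP-responsive promoters often hold. That of Insig1 stands beside it because both are textbook SREBP targets. In db/db 3, 4 and 5 Fasn was above and Insig1 below wild type, but in db/db 1 both were below it (16.5 and 17.0 FPKM). With all 9 libraries Fasn was not called (log2 change 0.06, limma adjusted p = 0.827). The stretches are from RefSeq (GRCm38.p6, 5′ to 3′ on the gene's strand), with the CCAAT box (CCAAT) and E-box (CACGTG) in capitals, on either strand.
Fasn, chr11:120824548-120824667, minus strand: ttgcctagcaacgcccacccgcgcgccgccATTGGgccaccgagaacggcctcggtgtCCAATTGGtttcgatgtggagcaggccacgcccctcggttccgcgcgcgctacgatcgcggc
Insig1, chr5:28071192-28071331, plus strand: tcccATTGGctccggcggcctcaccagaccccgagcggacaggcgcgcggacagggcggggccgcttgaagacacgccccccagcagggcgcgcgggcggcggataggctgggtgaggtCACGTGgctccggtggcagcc
Fasn has 3 CCAAT boxes in its 300-base window, starting 90, 62 and 59 bases before the annotated start, the last 2 overlapping. Elovl5 has 2 CCAAT boxes and 1 E-box in its window, and Elovl4 has 1 of each. Promoters 1 and 3 of Srebf1 hold 1 CCAAT box each. CCAAT occurs in 37.4% of all 32851 promoter windows of that length and CACGTG in 7.15%. A sterol response element in its strict form (TCACNCCAC, found in 1.24% of windows) was in none of the 10 windows of the 7 genes that matched, nor in that of Insig1. Scd1, Scd2 and Fads1 were not matched.

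Stearoyl-CoA desaturases put the first double bond into saturated chains, making oleate and palmitoleate. Scd2 (ENSMUSG00000025203, chromosome 19, 44293674 to 44306864, plus strand) made up 93.6% ± 0.749 (SD, n = 5) of the summed level of the 4 Scd genes in wild-type retina, Scd1 (ENSMUSG00000037071, chromosome 19, 44394455 to 44407879, minus strand) 4.99% ± 0.620, Scd3 1.27% and Scd4 0.0942%. Scd1 held 4.72, 3.53, 4.36, 3.87 and 3.21 FPKM in wild type 1 to 5. In db/db 1, 3, 4 and 5 it held 2.22, 2.41, 2.58 and 2.75 FPKM, each below the lowest wild-type library. The wild-type mean of 3.94 ± 0.608 FPKM (SD, n = 5) compared with 2.49 ± 0.230 FPKM in db/db (SD, n = 4), a ratio of 0.632. On the log2(FPKM + 1) scale, which understates the change of a gene this low, the difference was -0.49 (SE 0.10, limma adjusted p = 0.0615).

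Scd1 was the member nearest to the threshold, at rank 129 of 14588 by p. It was called lower without db/db 1 (log2 change -0.46, adjusted p = 0.0262), after correction for transcript length (-0.44, adjusted p = 0.0393) and with db/db 1 left out and GC content corrected (-0.42, adjusted p = 0.0485). Its sign was negative in all 21 alternatives that could test it. In db/db 1 it lay at percentile 8.03 of its length class. Wild type 1, the library with the highest Scd1, also had the highest sum of 8 oligodendrocyte and myelin markers (5 tested, 0 called, none at 0), 49.8 FPKM against 13.6 to 27.6 FPKM in the other 8 libraries, and their part in the difference was not tested beyond leaving that library out (-0.44, adjusted p = 0.130). Of 7 markers of adipocytes, a cell type in which Scd1 is abundant, 2 were tested and 0 called, and 5 were at 0 in some libraries (Adipoq, Plin1, Cfd, Lep and Cidec). The sum of the 7 ran from 4.10 to 8.81 FPKM and was highest in db/db 1, and their part in the difference was not tested.

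Scd2 moved less. It held 80.2, 70.8, 71.0, 73.1 and 73.2 FPKM in wild type and 62.3, 64.6, 68.0 and 63.95 FPKM in db/db, again without overlap. Mean levels of 73.7 ± 3.82 FPKM in wild type (SD, n = 5) and 64.7 ± 2.40 FPKM in db/db (SD, n = 4) gave a log2 difference of -0.18 (SE 0.06, adjusted p = 0.151). It did not pass in any of 22 alternatives (adjusted p 0.0644 to 0.472). After correction for transcript length the difference was -0.12. The ratio of Scd1 to Scd2 within a library was 0.0588, 0.0498, 0.0614, 0.0529 and 0.0439 in wild type and 0.0356, 0.0372, 0.0379 and 0.0431 in db/db. All 4 db/db ratios lay below the wild-type ones, though db/db 5 and wild type 5 nearly met.

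The 2 genes are close paralogs, and their coding sequences are shown because reads that fit both cannot be assigned. Over 1068 aligned coding bases (GENCODE M21) 90.4% were identical. The most alike and the least alike stretches of 90 bases follow, 5′ to 3′, with differing bases in capitals.
Scd1, coding bases 523 to 612, and Scd2, 532 to 621: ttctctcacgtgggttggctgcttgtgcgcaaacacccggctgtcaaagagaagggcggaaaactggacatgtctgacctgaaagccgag
Scd1, coding bases 75 to 164: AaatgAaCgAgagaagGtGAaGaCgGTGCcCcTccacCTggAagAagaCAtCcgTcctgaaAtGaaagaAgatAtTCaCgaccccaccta
Scd2, coding bases 84 to 173: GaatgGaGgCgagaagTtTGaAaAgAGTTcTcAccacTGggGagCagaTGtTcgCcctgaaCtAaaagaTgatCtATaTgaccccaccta
The first stretch has 0 mismatches and the second 30. Of all 50-base windows of the longest transcripts, which are mostly noncoding, 4.66% of those of Scd1 and 4.01% of those of Scd2 occurred in another gene. Scd2 stood at 19.0 times the level of Scd1 in wild type and 26.1 times in db/db (mean of the ratios within libraries), and the part of shared reads in the level of Scd1 was not tested.

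FADS2 and FADS1 catalyse the successive desaturation steps that lead from dietary essential fatty acids to arachidonic, eicosapentaenoic and docosahexaenoic acid, and their genes lie side by side on chromosome 19. Fads1 (ENSMUSG00000010663, 10182888 to 10196877, plus strand) held 19.5, 16.8, 17.4, 17.5 and 18.3 FPKM in wild type and 16.2, 15.3, 15.5 and 16.9 FPKM in db/db. All db/db values but that of db/db 5 were below the wild-type range. The log2 difference was -0.15 (SE 0.06, adjusted p = 0.221; 0.0647 to 0.472 over 22 alternatives). Fads2 (ENSMUSG00000024665, 10062765 to 10101746, minus strand) held 24.7 to 28.2 FPKM in wild type and 26.8 to 28.7 FPKM in db/db, with a log2 difference of 0.08 (SE 0.06, adjusted p = 0.493) whose sign turned with quantile normalization (-0.0042), GC correction (-0.0029) and both GC and length correction (-0.0207).

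The ratio of Fads1 to Fads2 was 0.693, 0.677, 0.665, 0.624 and 0.705 in wild type and 0.573, 0.536, 0.542 and 0.632 in db/db. Wild type 4 lay just below db/db 5, and otherwise the groups were apart. Fads3, their neighbour, averaged 6.06 ± 0.518 FPKM over the 5 wild-type libraries and 7.21 ± 1.16 FPKM over the 4 db/db libraries (SD) (adjusted p = 0.294). Fads6 stood at 4.64 and 4.27 FPKM. Fads2 was the most abundant of the 4, with 48.2% of their summed level in wild type and 50.6% in db/db.

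**Figure D3:**
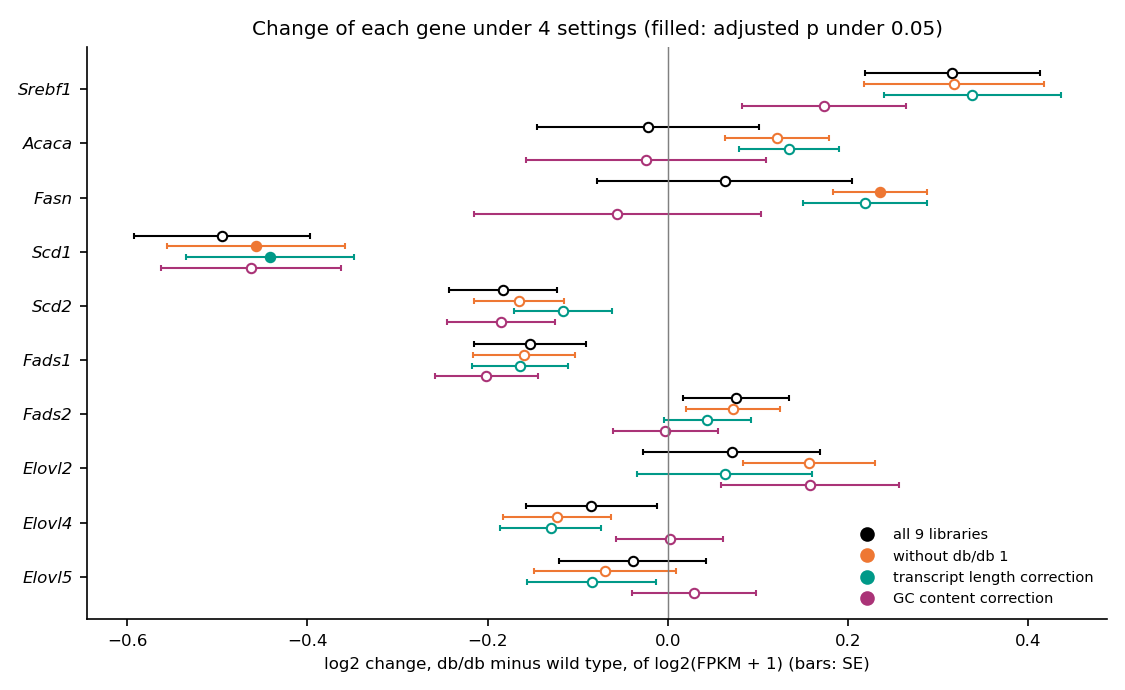
Log2 change of each gene between db/db and wild type (horizontal axis, with bars for the SE) with all 9 libraries, without db/db 1, and after correction for transcript length or for GC content, where filled points have an adjusted p under 0.05. The 3 filled points are Fasn without db/db 1 (0.24) and Scd1 without db/db 1 and after length correction (-0.46 and -0.44).

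The elongases differ in the chains they lengthen. Elovl4 (ENSMUSG00000032262, chromosome 9, 83778692 to 83806277, minus strand), whose product makes very long chains in photoreceptors, accounted for 74.6% ± 0.763 (SD, n = 5) of the summed level of the 7 elongase genes in wild type and 73.9% ± 1.83 (SD, n = 4) in db/db. It held 127, 123, 133, 137 and 132 FPKM in wild type and 133, 124, 127 and 109 FPKM in db/db. Only db/db 5 lay below the wild-type range. The log2 difference was -0.08 (SE 0.07, adjusted p = 0.535). The 95% interval of the fold reached from 0.843 to 1.05, and the difference was 0.0020 after GC correction.

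Elovl2 (ENSMUSG00000021364, chromosome 13, 41182381 to 41220405, minus strand), which lengthens the precursors of docosahexaenoic acid, held 16.3, 19.9, 20.1, 18.1 and 18.3 FPKM in wild type and 16.1, 22.4, 20.3 and 19.4 FPKM in db/db. db/db 3 and 4 were above and db/db 1 below the wild-type range. The log2 difference was 0.07 (SE 0.10, adjusted p = 0.708), and 0.16 without db/db 1 (adjusted p = 0.186). The lowest adjusted p of its alternatives was 0.0595, with db/db 1 left out and GC content corrected. Elovl5 (ENSMUSG00000032349, chromosome 9, 77917364 to 77984519, plus strand), which acts on shorter polyunsaturated chains, held 8.50 to 9.98 FPKM in wild type and 7.83 to 10.02 FPKM in db/db, with a log2 difference of -0.04 (SE 0.08, adjusted p = 0.812). The ratio of Elovl2 to Elovl4 was 0.128 to 0.161 in wild type. In db/db 3, 4 and 5 it was 0.181, 0.160 and 0.179, and in db/db 1 it was 0.121, so the groups overlapped. The ratio of Elovl5 to Elovl2 was 0.522 ± 0.0683 (SD, n = 5) and 0.484 ± 0.0935 (SD, n = 4).

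Elovl6, which lengthens palmitate to stearate, was the next elongase by level after Elovl2, with 12.1 ± 0.525 FPKM over the 5 wild-type libraries and 10.2 ± 0.544 FPKM over the 4 db/db libraries (SD). The groups did not overlap, and the log2 difference was -0.23 (SE 0.06, adjusted p = 0.0907). Without db/db 1 Elovl6 fell by 0.22 on the log2 scale (adjusted p = 0.0331). After correction for GC content and length it stood at -0.06 (adjusted p = 0.703). Elovl1 and Elovl7 stood at 2.64 and 1.43 FPKM in wild type, and Elovl3 was listed at 0.0047 FPKM.

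The 10 genes were set within 80 genes of 5 groups, of which 71 were tested. Of these 70 did not pass and 1 did, beside 0.5% of all tested genes. Among 18 tested regulators 0 rose and 1 fell, Insig1, and 6 had an unadjusted p under 0.05. Of 12 genes of substrate supply and synthesis, 10 of desaturation, 12 of elongation and 19 of acyl-CoA activation, binding and peroxisomal completion of docosahexaenoic acid none passed (limma; 1, 4, 1 and 5 had an unadjusted p under 0.05, beside 19.3% of all tested genes). The medians of the groups' log2 changes were 0.0709, 0.0300, 0.0706, -0.0057 and -0.0804 in that order. Without db/db 1, 4 of the 71 rose (Rxra, Ppard, Fasn and Cyb5r3) and 4 fell (Insig1, Scd1, Elovl6 and Hsd17b12), beside 4.72% and 5.84% of all tested genes.

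Of the genes next to the members, Cyb5r3, the reductase that feeds electrons through cytochrome b5 to the desaturases, averaged 8.81 ± 0.483 FPKM over the wild-type and 11.3 ± 1.22 FPKM over the db/db libraries (SD; log2 change 0.32, adjusted p = 0.0788). Rxra, a nuclear receptor that pairs with LXR and PPAR, had 0.24 (adjusted p = 0.132; 0.0137 without db/db 1). Pgd and Acss2, which supply NADPH and acetyl-CoA, had 0.19 and -0.14 (adjusted p = 0.162 and 0.269). Tecr, the last enzyme of each elongation round, had 0.24 (adjusted p = 0.341), with 139 FPKM in db/db 1 and 87.5 to 93.8 FPKM in the other db/db libraries. Acbd5, a peroxisomal acyl-CoA-binding protein gene, and Acsl4, an activator of polyunsaturated chains, had -0.20 and -0.28 (adjusted p = 0.147 and 0.149). With GC correction Cyb5r3 was at 0.21 (limma adjusted p = 0.183), Rxra at 0.12 (0.564) and Acbd5 at -0.06 (0.639). Pgd stayed at 0.19 with that correction (limma adjusted p = 0.213).

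**Figure D4:**
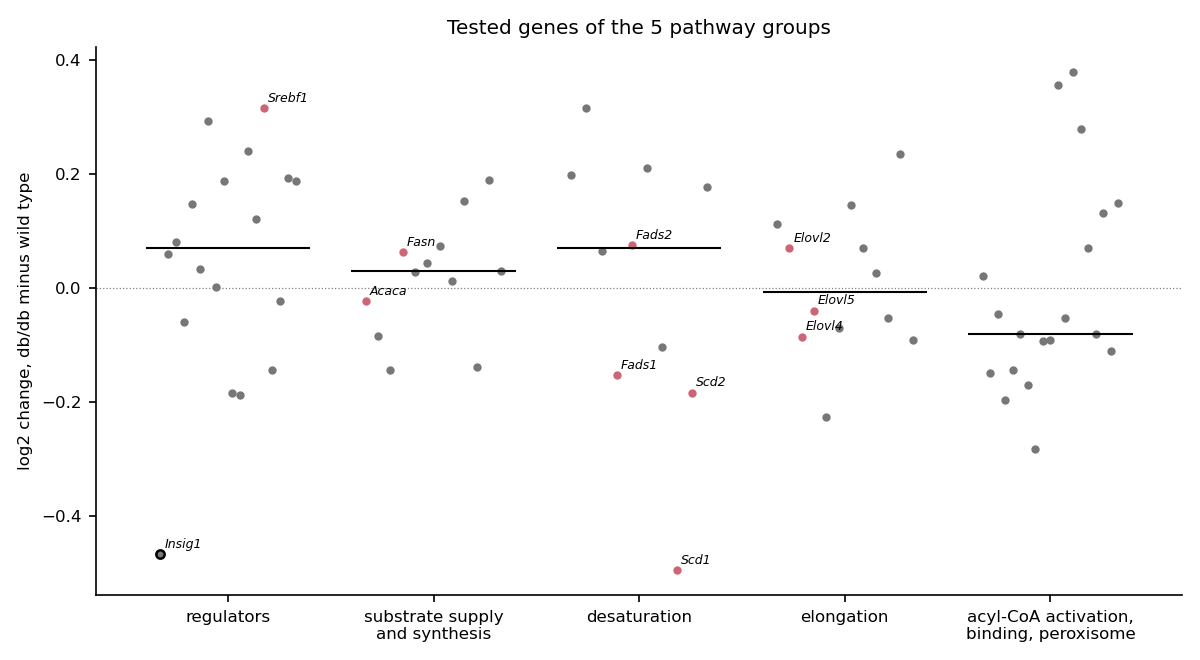
Log2 change between db/db and wild type (vertical axis) of the 71 tested genes of the 5 groups, with a point per gene, the 10 genes in red and named, and a line for each group's median. Insig1, ringed in black, is the only gene with an adjusted p under 0.05, and Scd1 is the lowest point at -0.49.

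The tested gene with the most similar course over the 9 libraries was sought for the members, by Pearson's correlation of log2(FPKM + 1), as a description with no test. All these correlations are over the same 9 libraries, db/db 1 with its length pattern included, and with 14588 candidates high values are common. Fasn ran closest to Abca2 (0.992), a lipid transporter gene, and Scd2 to Gm2115 (0.976). Srebf1 was matched by Vps18 (0.950), Fads1 by Map6d1 (0.900), Fads2 by Ctdsp2 (0.940), Elovl2 by the pseudogene Sms-ps (0.933), Elovl4 by Gm15379 (0.942) and Elovl5 by Golph3 (0.947). None of these matches passed the threshold itself between db/db and wild type.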

How the data were processed

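The authors deposited 1 table of FPKM values for 35397 genes, made with the build mm10 per the submitters' processing notes. The libraries were prepared with a SMARTER kit from 1.3 ug of column-purified RNA, per the labels' protocols. Which aligner, counter and annotation were used, and the strand of counting, is not given in the sources used here. Columns named Control or DR with a number were taken as the sample of that group and number, an inference from the names. Symbols, positions, transcript lengths and GC content came from GENCODE M21 (the same assembly), which holds 34499 of the 35397 identifiers.

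FPKM times union exon length moved in steps, of which 99.0% to 99.1% of values up to 20 reads were whole within 0.1 read. These recovered reads gave the depth. Among low whole values above a single read, 70.1% to 73.1% were even in each library, so a read need not be a separate fragment. Limma-voom took the recovered reads as they stood.

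Values were tested as log2(FPKM + 1), which understates changes of low genes, for the 14588 genes that averaged 1 FPKM or more, with limma 3.58.1 in R 4.3.3 (lmFit, eBayes with trend, no covariate) and Benjamini-Hochberg adjustment over all of them at 0.05. Steps were tested on simulated data. Each value was recomputed with 20 other settings and 2 more, the length correction and the GC and length corrections together, chosen after seeing the data. Corrections subtracted library medians in 20 bins of GC content or of longest transcript length. The 10 genes, the 5 pathway groups and the 18 marker lists were chosen with earlier results of these data known. By the naming rule the text names the 10 genes, other genes of the 5 groups past the threshold or among the 2 smallest p of their group, the paralogs by level, and for each of the 10 the gene most alike (those of Acaca and Scd1 are not reported here). Outside this rule, Ppard and Hsd17b12 are named because they passed without db/db 1. The labels do not say whether the replicate numbers pair the libraries, and the main test used no pairing. Alignment used Biopython 1.88, and figures matplotlib 3.10.9 in Python 3.11.15.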

Additional observations from a re-analysis of the deposited data

Results flagged for a closer look

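Single libraries set apart from the others of their group were looked for with Dixon's ratio at its 95% critical value in 50 groups of values, those of the 10 genes, of 10 other named genes and of 5 ratios. Chance alone sets apart about 1 group in 20, and 4 stood apart. Scd2 was at 80.2 FPKM in wild type 1, against 70.8 to 73.2 FPKM in the other wild-type libraries. Elovl5 was at 8.50 FPKM in wild type 2, against 9.74 to 9.98 FPKM. Acss2 was at 4.90 FPKM in wild type 4, against 4.23 to 4.32 FPKM. Tecr was at 139 FPKM in db/db 1, against 87.5 to 93.8 FPKM.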

How the results depend on the processing

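With all 9 libraries db/db had 34 higher and 39 lower genes. Higher and lower genes numbered 7 and 2 with no filter, 17 and 13 with a filter at a mean of 5 FPKM, 21 and 15 with equal sums, 5 and 1 with GC correction, 270 and 243 with length correction, 374 and 341 when GC correction was joined to leaving out db/db 1, and 289 and 254 without db/db 1 and db/db 4. Limma-voom on recovered reads gave 64 lower. Leaving out 1 library gave 3 to 688 higher and 1 to 852 lower, the highest of each without db/db 1. The replicate block also drops wild type 2, whose number no db/db library shares. With it they were 2 and 0, and 0 of the 10 genes passed, beside 3 and 1 when wild type 2 was left out with no block. Same-numbered deviations from the group means correlated at 0.0434, 0.0455, -0.18 and 0.134. This does not decide whether the numbers pair the libraries, since the length pattern of db/db 1 enters every db/db deviation. Of the 10 genes 0 passed with all 9 libraries, 0 to 2 when 1 library was left out, 1 with length correction and 1 when GC correction was joined to leaving out db/db 1.

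Signs turned in 15 of 219 single-gene values of the 10 genes. Fasn was at -0.056 with GC correction and ran from -0.0197 to 0.24 over the fits without 1 library. Acaca ran from -0.11 to 0.12 over those fits, and was at 0.0684 without db/db 1 and db/db 4, 0.13 with length correction, 0.10 with GC and length corrections and 0.14 when GC correction was joined to leaving out db/db 1. Elovl4 was at 0.0020 with GC correction. Elovl5 was at 0.029 with GC correction, 0.0073 with db/db 1 left out as well, and -0.0779 to 0.0343 without 1 library. Fads2 was at -0.0042 with quantile normalization, -0.0029 with GC correction and -0.0207 with GC and length corrections. Among the other named genes Tecr was at -0.0052 when GC correction was joined to leaving out db/db 1. The cause of these changes was not tested. Scaling moved the median of all tested genes by at most 0.03 on the log2 scale.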
